A study of Mus musculus with 2 samples.

Results

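Naive and memory lymphocytes carry a small set of receptors and transcription factors that decide where they travel and whether they stay quiescent. CCR7 and S1PR1 are chemoattractant receptors with opposite uses, the one drawing cells into lymph nodes towards CCL19 and CCL21, the other drawing them out again towards sphingosine 1-phosphate in lymph and blood. IL7R is the receptor chain for the survival cytokine interleukin 7, TCF1 (encoded by Tcf7) and LEF1 are related HMG-box factors of naive and stem-like T cells, KLF2 drives S1pr1 transcription in quiescent T cells, and CXCR4 binds CXCL12 and guides lymphocytes and myeloid cells through bone marrow and inflamed tissue. These 7 genes, Ccr7, Il7r, Tcf7, Lef1, Klf2, S1pr1 and Cxcr4, were taken by their symbols from the 32285 genes of the count matrices, and all 7 were found. In inflamed islets of NOD mice such RNA can mark T cells that are close to a naive or stem-like state, B cells, and dendritic cells that use CCR7 to migrate.

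Islets isolated from NOD mice were profiled cell by cell in droplets. NOD is an inbred strain whose islets become infiltrated by lymphocytes before autoimmune diabetes. Mice were 5 weeks old at the start and ate the HAMSAB diet or the HAMS diet for 5 weeks. HAMS is known in the field as high-amylose maize starch, and HAMSAB as that starch with acetyl and butyryl groups attached. Each diet has 1 droplet library, and the labels give neither the number of mice in a library nor their sex. Both libraries come from the NOD genotype with no added allele or agent in the labels.

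Counts are unique molecular identifiers (UMIs): 4254040 over 5022 barcodes in HAMSAB and 3599756 over 4352 barcodes in HAMS. After filtering, 4628 HAMSAB and 4185 HAMS cells remained, and their median depths were 705 and 704 UMIs. The libraries shared 6 barcodes. With 1 library per diet there is no replicate check and no test between diets. All intervals are 95% intervals that cover counting error only, and "higher" and "lower" describe these 2 libraries. In summed RNA of a class, more RNA per cell and more cells with the RNA cannot be told apart, so shares of cells are given as well.

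Cells were clustered without using the 7 genes. The T-like class held 693 HAMSAB cells and 314 HAMS cells, the B-like class 647 and 193, and the cDC-like class (conventional dendritic cells, led by Xcr1, Fscn1 and Il12b) 186 and 126. Clusters 5 and 7 stayed unnamed under the marker rule. The best-scoring list for both was that of mast cells, with 1 marker seen in at least 5% of cells. Dendritic cell markers still had the highest summed level of all lists (CPM, UMIs per 1e6 UMIs of the class). They summed to 2159 CPM in HAMSAB and 1940 CPM in HAMS cells of cluster 5. In cluster 7 they summed to 3097 and 2086 CPM, followed by macrophage markers at 1161 and 974 CPM. A count of markers with any UMI does not set a lineage. In HAMSAB cluster 5 it was 11 of 12 for dendritic and also 11 of 12 for T cell markers, which summed to 45.3 CPM. Both clusters also held Flt3, Itgax and Zbtb46 UMIs and much Cd74, which encodes the class II invariant chain (12835 and 14128 CPM in cluster 5). Presence of these UMIs does not set a lineage either. Lists of dendritic subsets were mixed for cluster 5. The cDC1 list summed to 177 CPM in HAMSAB and 198 CPM in HAMS, beside 247 and 270 CPM in macrophage-like cells. The cDC2 list gave 161 and 126 CPM beside 348 and 327 CPM. The mature dendritic list gave 672 and 808 CPM beside 528 and 474 CPM. In cluster 7 the lists gave 254 and 213, 501 and 472, and 1041 and 1370 CPM. Both clusters are read beside the cDC-like class for description only. Cluster 5, led by Ifitm1, Pak1 and Il1r2, held 814 HAMSAB and 642 HAMS cells, and cluster 7, led by Mgl2, Lilrb4a and Ptgs2, held 180 and 79. The pDC-like class (plasmacytoid dendritic cells) held 67 and 33 cells. All 12 T cell markers were found in the T-like class of both diets, and all 10 B cell markers in the B-like class of both.

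The promoters of Il7r and Tcf7 are shown because in T-like cells Il7r had the largest ratio between diets, and Tcf7 the most UMIs among the genes that were higher in HAMSAB. RefSeq promoter windows (GRCm38.p6, 250 bases before to 50 after a start) exist here for 5 of the 7 genes. Each window was searched on both strands for 5 short motifs. In the Il7r window (chr15:9529827-9530126, minus strand) the capitals mark, from left to right, ACTTCCT, the reverse complement of the ETS core AGGAAGT, and the RUNX core TGTGGTT. In the window at the second Tcf7 start (chr11:52282546-52282845, minus strand) the capitals mark GGGTGTG, the reverse complement of the KLF core CACACCC, and the FOXO core GTAAACA.
Il7r: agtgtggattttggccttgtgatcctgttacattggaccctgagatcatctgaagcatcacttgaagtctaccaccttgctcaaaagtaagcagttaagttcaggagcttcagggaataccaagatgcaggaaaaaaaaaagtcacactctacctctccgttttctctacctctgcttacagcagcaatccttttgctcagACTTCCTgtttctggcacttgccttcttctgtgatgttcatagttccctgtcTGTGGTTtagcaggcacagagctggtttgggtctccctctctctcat
Tcf7: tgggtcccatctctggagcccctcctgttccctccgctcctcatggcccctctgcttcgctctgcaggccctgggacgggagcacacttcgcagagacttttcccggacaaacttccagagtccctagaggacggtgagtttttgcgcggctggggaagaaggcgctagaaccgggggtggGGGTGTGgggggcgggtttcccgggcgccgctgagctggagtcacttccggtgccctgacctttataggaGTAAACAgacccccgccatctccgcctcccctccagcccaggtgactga

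Such short motifs are common. Of 32851 promoter windows of this length, 9.35% hold the ETS core, 5.27% the RUNX core, 7.95% the KLF core, 3.65% the FOXO core and 3.73% the TCF/LEF core CTTTGAT. No motif overlapped another in the Il7r and Tcf7 windows shown. The windows of Klf2 and Cxcr4 and the window at the first Tcf7 start held none of the 5, and 1 of 4 Lef1 windows held an ETS core. A match is a run of letters and does not show that a factor binds there.

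By GENCODE gene models on GRCm38, Ccr7 lies on chromosome 11 at 99144196 to 99155077 (minus strand) and Tcf7 on the same chromosome at 52252371 to 52283014 (minus strand). Il7r lies on chromosome 15 at 9505788 to 9530176 (minus strand), and Cxcr4 on chromosome 1 at 128588199 to 128592293 (minus strand). S1pr1 lies on chromosome 3 at 115710433 to 115715072 (minus strand), Lef1 on that chromosome at 131110471 to 131224356 (plus strand), and Klf2 on chromosome 8 at 72319033 to 72321656 (plus strand). Tcf7 and Lef1 each overlap 2 other annotated genes, 1 of them antisense, and the sources used here do not give whether counting used strand. The antisense partner of Tcf7, A630014C17Rik, had 0 UMIs in T-like cells of either diet.

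Each of the 7 genes had its own cell classes. Levels below are CPM within a class and are compared between classes for 1 gene at a time. Ccr7 was highest in cluster 7, at 754 CPM in HAMSAB and 685 CPM in HAMS, followed by the cDC-like class at 435 and 387 CPM and cluster 5 at 264 and 242 CPM. Each of these neighbours was apart beyond its interval in 1 diet only. Macrophage-like cells (168 and 150 CPM) came before T-like cells (167 and 66.3 CPM) with overlapping intervals. B-like cells had 45.8 and 40.9 CPM. In both libraries this homing receptor was higher in cluster 7, cDC-like cells and cluster 5 than in T-like cells.

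Il7r was highest in pDC-like cells, not in T-like cells. It stood at 524 CPM in HAMSAB pDC-like cells and 528 CPM in HAMS ones, from 17 and 9 UMIs, and was seen in 17.9% (9.61 to 29.2) and 18.2% (6.98 to 35.5) of the cells. The next class, cluster 7, had 107 and 122 CPM and was apart from pDC-like cells in both diets. Cluster 5 (70.6 and 43.5 CPM), macrophage-like cells (48.7 and 48.7 CPM) and T-like cells (67.8 and 24.6 CPM) overlapped one another in order. In B-like cells Il7r was near 0, with 4 UMIs in HAMSAB and 0 in HAMS.

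The HMG-box factors were the most T cell restricted of the set. Tcf7 stood at 968 CPM in HAMSAB and 538 CPM in HAMS T-like cells, and the next class, cluster 2 (led by the hormone gene Ppy), at 95.3 and 59.6 CPM, apart in both diets. Lef1 was highest in T-like cells, at 136 CPM in HAMSAB and 160 CPM in HAMS. Plasma-like cells followed at 68.4 and 48.8 CPM with intervals that overlapped those of T-like cells. No Lef1 UMI was found in the 814 HAMSAB and 642 HAMS cells of cluster 5, which allows a share of cells with a UMI of up to 0.369% and 0.467%.

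S1pr1 was highest in endothelial-like cells, at 756 CPM in HAMSAB and 517 CPM in HAMS, where its product is known to stabilise vessels. T-like cells followed at 96.8 and 49.1 CPM, apart in both diets, then B-like cells at 42.7 and 31.8 CPM. Not 1 S1pr1 UMI was found in the 186 HAMSAB and 126 HAMS cDC-like cells, in cluster 7, or in macrophage-like cells of either diet. The exit receptor was read in lymphocytes and vessel cells, with 2 UMIs in all of cluster 5. The entry receptor Ccr7 was read in lymphocytes, macrophage-like cells, cDC-like cells and clusters 5 and 7. In pDC-like cells Ccr7 had 0 UMIs in HAMSAB and 1 in HAMS.

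Klf2, whose product drives S1pr1 in resting T cells, was low in lymphocytes. It stood at 16.6 CPM in HAMSAB and 22.1 CPM in HAMS T-like cells and 21.4 and 18.2 CPM in B-like cells. Beta-like cells had 80.0 and 72.8 CPM, from 59 and 79 UMIs.

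Cxcr4 was broad among immune cells. The order ran from macrophage-like cells (3997 CPM in HAMSAB, 3930 CPM in HAMS) and T-like cells (3801 and 4029 CPM), which overlapped, through cluster 7 (3017 and 3547 CPM), pDC-like cells (3543 and 2524 CPM) and B-like cells (2622 and 2413 CPM) to cluster 5 (1978 and 2127 CPM). The cDC-like class had the lowest level among these immune classes, 1060 and 1108 CPM, apart from cluster 5 in both diets. Alpha-like, beta-like and delta-like cells had between 67.8 and 177 CPM.

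**Figure D1:**
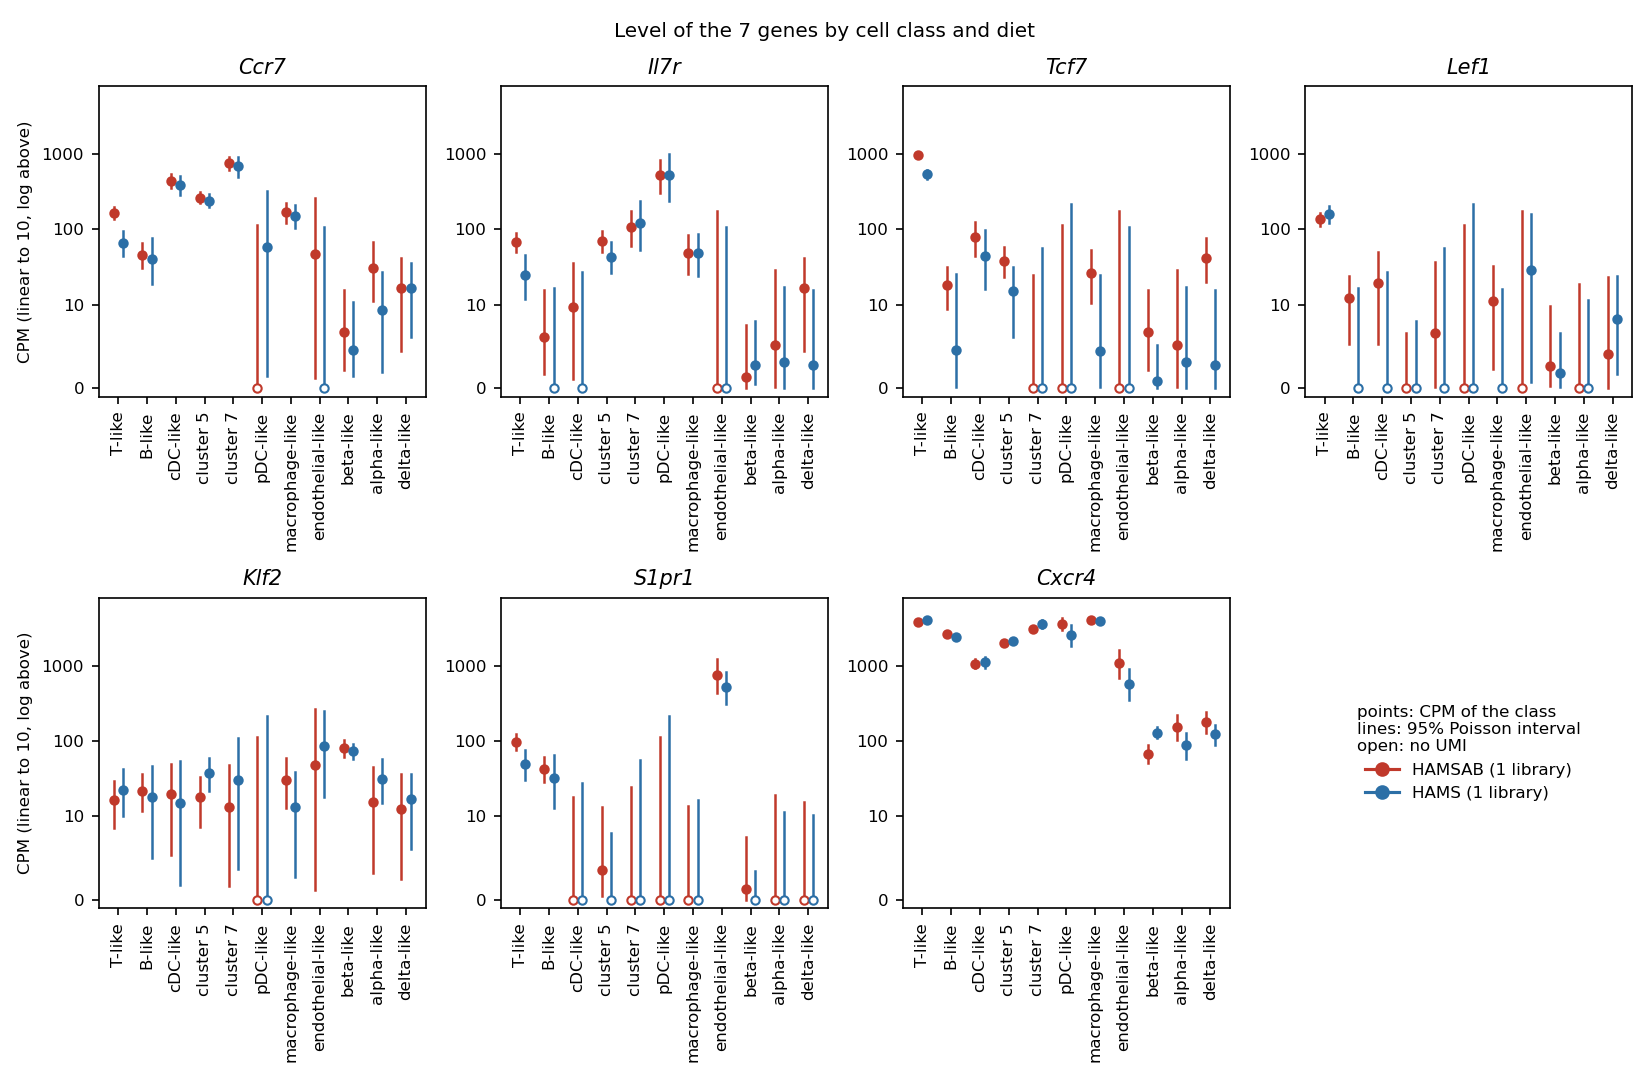
Level of each of the 7 genes (CPM, linear up to 10 and logarithmic above) in 11 cell classes, with HAMSAB in red and HAMS in blue; points are summed counts of 1 library, lines are 95% Poisson intervals and open points mark classes with no UMI. Tcf7 and Lef1 peak in T-like cells, Il7r in pDC-like cells, S1pr1 in endothelial-like cells and Ccr7 in cluster 7.

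Readings in endocrine cells were used as a rough floor for free RNA in droplets. In alpha-like, beta-like, delta-like and cluster 2 cells as 1 pool (1384 HAMSAB and 2356 HAMS cells, median 711 and 671 UMIs), 0.939% and 0.382% of cells had a Ccr7 UMI, 0.434% and 0.212% an Il7r UMI, 0.650% and 0.212% a Tcf7 UMI, and 0.0723% and 0% an S1pr1 UMI. Tcf7 in these cells was itself higher in HAMSAB, 16.4 against 4.82 CPM, which is small beside 968 and 538 CPM in T-like cells. Within the pool it was uneven, at 95.3 CPM in HAMSAB and 59.6 CPM in HAMS in cluster 2. Delta-like cells had 41.2 and 2.78 CPM, and beta-like cells 6.78 and 0.921 CPM. For Tcf7 the pool may thus hold more than free RNA, which was not tested. The Tcf7 readings in B-like cells, in 0.927% of HAMSAB and 0.518% of HAMS cells, lie near the shares of this pool and are not read as expression. For Klf2 the endocrine cells are no such floor, since beta-like cells had more of it than lymphocytes.

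In T-like cells, the trafficking receptors Ccr7 and S1pr1, the cytokine receptor Il7r and the factor Tcf7 were higher in the HAMSAB library, while Lef1, Klf2 and Cxcr4 were not. Ccr7 stood at 167 CPM in HAMSAB (121 UMIs) and 66.3 CPM in HAMS (27 UMIs), a log2 ratio of 1.33 (0.72 to 1.99). It was found in 12.7% of HAMSAB T-like cells (10.3 to 15.4) and 7.01% of HAMS ones (4.44 to 10.4). Il7r stood at 67.8 CPM (49 UMIs) and 24.6 CPM (10 UMIs), a log2 ratio of 1.46 (0.46 to 2.61), in 35 of 693 HAMSAB cells and 9 of 314 HAMS cells. These were the 2 of 7 genes at least 2-fold higher, where 5.56% of the 5670 genes with at least 20 UMIs in T-like cells were at least 2-fold higher. No member was at least 2-fold lower, against 2.98% of these genes.

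Tcf7 had the narrowest interval among the genes that differed. It stood at 968 CPM in HAMSAB (700 UMIs) and 538 CPM in HAMS (219 UMIs), a log2 ratio of 0.85 (0.63 to 1.07). It was found in 38.8% of HAMSAB T-like cells (35.2 to 42.6) and 28.3% of HAMS ones (23.4 to 33.7). S1pr1 stood at 96.8 CPM (70 UMIs) and 49.1 CPM (20 UMIs), a log2 ratio of 0.98 (0.24 to 1.77), yet the shares of cells were close, 7.36% and 6.05%.

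The remaining 3 genes had intervals that held 0. Lef1, the partner of Tcf7 in the naive programme, stood at 136 CPM in HAMSAB (98 UMIs) and 160 CPM in HAMS (65 UMIs), a log2 ratio of -0.24 (-0.70 to 0.24). Klf2 rested on 12 and 9 UMIs, with a log2 ratio of -0.41 (-1.78 to 1.01). Cxcr4 stood at 3801 CPM (2749 UMIs) and 4029 CPM (1640 UMIs), a log2 ratio of -0.08 (-0.17 to 0.01), which leaves little room for a difference in counting terms.

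All 7 genes passed the minimum of 20 UMIs in T-like cells. Their median log2 ratio was 0.85, beside 0.01 over all 5670 genes, and 4 of 7 intervals lay wholly above 0, as 7.55% of all intervals did. No member's interval lay wholly below 0, as 6.31% of all intervals did. The 7 genes were named with earlier results of these data known, so these counts describe them and support nothing further.

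**Figure D2:**
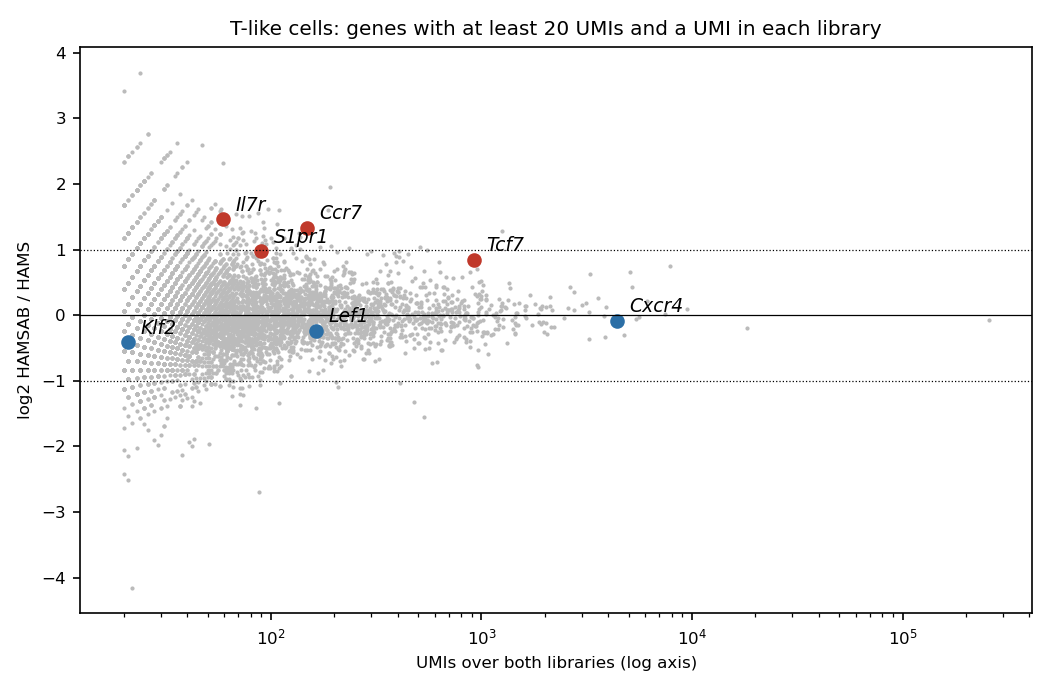
Log2 ratio of HAMSAB over HAMS in T-like cells against UMIs over both libraries (log axis), for 5670 genes with at least 20 UMIs in grey and the 7 genes in colour (red above 0, blue below). Ccr7 and Il7r lie above the dotted 2-fold line, Tcf7 and S1pr1 just under it, and Cxcr4 close to 0.

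The T-like class differed in makeup and depth between libraries, and these values stand beside the ratios. Median UMIs per cell were 780 in HAMSAB and 960 in HAMS T-like cells. Thinning each cell to 500 UMIs, as an expectation over all draws, kept 541 HAMSAB and 262 HAMS cells and left out 152 and 52. The shares with a UMI were then 6.95% and 3.89% for Ccr7, 27.9% and 18.5% for Tcf7, 4.78% and 3.18% for S1pr1, 2.63% and 0.654% for Il7r, and 68.5% and 70.1% for Cxcr4. The thinned Ccr7 log2 ratio was 0.94 and so no longer 2-fold.

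Markers of other cells also moved with diet in T-like cells. B cell markers were detected for 9 of 10 genes in HAMSAB and 1 of 10 in HAMS, with summed levels of 48.4 and 4.91 CPM and Cd22 at 0 in both. Macrophage markers summed to 45.6 CPM (7 of 11 detected) and 22.1 CPM (6 of 11), with Adgre1 and Ms4a7 at 0 in both. Beta cell markers summed to 4788 and 3162 CPM. Other sets were lower in HAMSAB: alpha cell markers summed to 700 and 1201 CPM, delta cell markers to 281 and 830 CPM, gamma cell markers to 5.53 and 63.9 CPM and cDC markers to 134 and 187 CPM. Leaving out cells of mixed lineage kept 677 HAMSAB and 311 HAMS cells and gave log2 ratios of 1.30 for Ccr7, 0.86 for Tcf7, 1.46 for Il7r and 1.01 for S1pr1.

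Finer clustering, again without the 7 genes, split the T-like class into 3 subclusters of any size. The first was led over other T-like cells by Tnfsf8, Maf, Ikzf2, Ctla4 and Icos, genes of helper and regulatory T cells, and held 337 HAMSAB and 99 HAMS cells. The second, with 245 and 136 cells, was led over other T-like cells by Chga, Pam and Ins1, which are islet endocrine genes. Over all other cells it was led by Tcf7, Cd5, Lat, Lck, Thy1 and Trac, with Lef1 among its top 10. In HAMSAB Tcf7 still stood higher in the first subcluster, at 1199 CPM against 870 CPM. The third was led by Ccl5, Nkg7 and Gzma, genes of cytotoxic cells, and held 110 and 79 cells. It made up 15.9% of HAMSAB and 25.2% of HAMS T-like cells.

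The difference in Tcf7 was widest in the cytotoxic subcluster. Tcf7 stood there at 404 CPM in HAMSAB (45 UMIs in 22 of 110 cells) and 44.9 CPM in HAMS (5 UMIs in 3 of 79 cells), a log2 ratio of 3.17 (1.84 to 4.86). TCF1 in CD8 T cells is known as a mark of the stem-like pool that renews effector cells. In the same subcluster Ccr7 had 6 UMIs in HAMSAB and 0 in HAMS, and Il7r 9 and 0, while Cd8a was present in both, with 34 and 22 UMIs. Its cytotoxic gene Nkg7 stood at 539 and 655 CPM with an interval of the ratio that held 0. Median UMIs in this subcluster were 856.5 in HAMSAB and 1182 in HAMS, and the part of depth was not tested.

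In the Tnfsf8- and Maf-led subcluster Tcf7 stood at 1199 CPM in HAMSAB and 765 CPM in HAMS, a log2 ratio of 0.65 (0.32 to 0.99). S1pr1 was 125.5 CPM there (47 UMIs) and 42.5 CPM (5 UMIs), a log2 ratio of 1.56 (0.24 to 3.25). Lef1 went the other way in this subcluster, 142 CPM in HAMSAB and 238 CPM in HAMS, a log2 ratio of -0.75 (-1.44 to -0.04), and Cxcr4 was also lower, 3460 and 3997 CPM, at -0.21 (-0.36 to -0.05). The paired HMG-box factors thus differed in opposite directions in these cells. Ccr7 had an interval that held 0 (0.67, -0.17 to 1.61).

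In the Chga- and Ins1-led subcluster Ccr7 carried the difference, with 187 CPM in HAMSAB (44 UMIs) and 73.0 CPM in HAMS (13 UMIs), a log2 ratio of 1.35 (0.44 to 2.37). Tcf7 was 870 and 697 CPM there (0.32, -0.01 to 0.65). S1pr1 (63.6 and 67.4 CPM) and Il7r (33.9 and 33.7 CPM) lay side by side. Whether the subclusters differ from each other in these ratios was not tested.

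With the share of each subcluster held equal between diets, an alternative added after the data were seen, the T-like log2 ratios were 1.04 for Ccr7, 1.27 for Il7r, 0.62 for Tcf7 and 0.93 for S1pr1. At finer resolution the cytotoxic cells lost the T-like name, and the remaining T-like cells (582 HAMSAB, 235 HAMS) gave 0.57 for Tcf7 and 0.95 for Il7r.

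**Figure D3:**
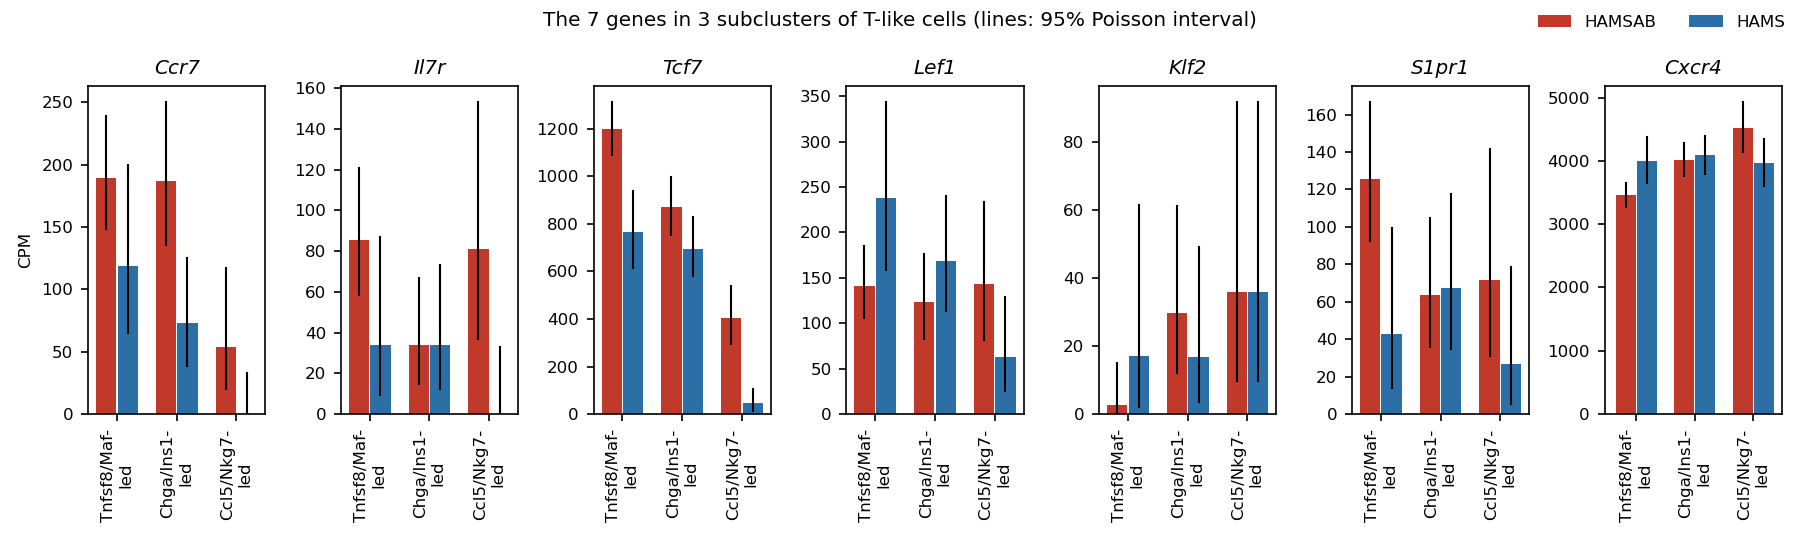
Level of the 7 genes (CPM, linear axis from 0) in 3 subclusters of T-like cells, HAMSAB red on the left and HAMS blue on the right of each pair; black lines are 95% Poisson intervals of 1 library each. Tcf7 in the Ccl5- and Nkg7-led cells is 404 CPM in HAMSAB and 44.9 CPM in HAMS, and Lef1 in the Tnfsf8- and Maf-led cells is 142 and 238 CPM.

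Few T-like cells could be split by coreceptor, because Cd4 and Cd8 UMIs are sparse. Among cells with a Cd8 UMI and no Cd4 UMI (93 HAMSAB, 54 HAMS), Tcf7 stood at 708 and 278 CPM, a log2 ratio of 1.35 (0.74 to 1.99), and Ccr7 at 186 and 55.7 CPM (1.74, 0.42 to 3.32). Lef1 was lower in these Cd8 cells, 89.4 CPM in HAMSAB (12 UMIs) and 232 CPM in HAMS (25 UMIs), a log2 ratio of -1.38 (-2.50 to -0.33). Among cells with a Cd4 UMI alone (33 and 13 cells), Tcf7 was lower in HAMSAB, 549 and 1131 CPM, with a log2 ratio of -1.04 (-1.95 to -0.12) that rests on 24 and 21 UMIs. The direction of Tcf7 in these few Cd4 cells was opposite to that in the class. S1pr1 had 0 UMIs in HAMSAB and 3 in HAMS in the Cd8 cells. Il7r stood there at 44.7 and 37.1 CPM (0.27, -1.81 to 2.54). Cells with neither or both coreceptors (567 HAMSAB, 247 HAMS) held 68 and 17 S1pr1 UMIs and 39 and 5 Il7r UMIs.

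The genes were also read against each other within T-like cells of 1 library, with the selecting gene's UMIs taken out of the total. Cells with a Tcf7 UMI had less of the effector genes: Ccl5 stood at 44.2 CPM in HAMSAB cells with Tcf7 and 370 CPM in those without. In HAMS the same gene stood at 7.27 CPM with Tcf7 and 550 CPM without. Nkg7 followed, at 82.0 and 153 CPM in HAMSAB and 21.8 and 316 CPM in HAMS. Lef1 was higher beside Tcf7 in both libraries, 173 and 106 CPM in HAMSAB and 262 and 108 CPM in HAMS. The HAMSAB intervals with and without Tcf7 overlapped for both Nkg7 and Lef1. Cells with a Tcf7 UMI were deeper (median 903 and 711.5 UMIs in HAMSAB, 1210 and 931 in HAMS), and the part of depth in these contrasts was not tested.

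Ccr7 and Cxcr4 ran in opposite directions within T-like cells. Cells with a Ccr7 UMI had 2516 CPM of Cxcr4 in HAMSAB, and those without had 4048 CPM. In HAMS the values were 2311 and 4182 CPM. Cxcr4 CPM was also lower in deeper cells, and cells with Ccr7 were deeper, so the contrast was read again by depth. Among cells at or above their library's median UMIs, Cxcr4 was 2076 CPM with Ccr7 (1799 to 2383) and 3463 CPM without (3291 to 3641) in HAMSAB, and 1677 (1228 to 2237) and 3712 CPM (3490 to 3944) in HAMS. Below the median the values were 4693 and 5602 CPM in HAMSAB and 5269 and 5596 CPM in HAMS, with intervals that overlapped.

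In B-like cells the set showed no 2-fold difference. Only Ccr7, S1pr1 and Cxcr4 reached 20 UMIs, and 0 of these 3 were at least 2-fold higher or lower, beside 7.86% of 5002 genes higher and 3.46% lower. Ccr7 stood at 45.8 CPM in HAMSAB (30 UMIs) and 40.9 CPM in HAMS (9 UMIs), a log2 ratio of 0.16 (-0.95 to 1.42). S1pr1 stood at 42.7 CPM (28 UMIs) and 31.8 CPM (7 UMIs), a log2 ratio of 0.43 (-0.80 to 1.87). With so few UMIs a 2-fold higher level of either gene lay within the interval and was not detectable. A 2-fold lower level lay outside both intervals, which cover counting error only.

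Cxcr4 in B cells is the receptor that holds dividing germinal centre B cells near CXCL12. It stood at 2622 CPM in HAMSAB (1718 UMIs) and 2413 CPM in HAMS (531 UMIs), a log2 ratio of 0.12 (-0.02 to 0.26), but was found in 75.1% of HAMSAB B-like cells (71.6 to 78.4) and 61.1% of HAMS ones (53.9 to 68.1). The gap in shares remained after thinning, at 63.9% and 51.0%. In the larger of 2 subclusters (426 HAMSAB and 122 HAMS cells) Cxcr4 was in 69.95% and 51.6% of cells, at 2836 and 2193 CPM, a log2 ratio of 0.37 (0.17 to 0.58). In the subcluster led by Jchain, Mybl1, Pou2af1 and Mki67 (220 and 71 cells) it was in 85.5% and 77.5% of cells, at 2414 and 2630 CPM, a log2 ratio of -0.12 (-0.32 to 0.08). Whether the subclusters differ from each other was not tested. The class ratio depended on weighting: it was 0.32 with each cell counted equally and -0.12 among cells with at least 500 genes.

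In the cDC-like class Ccr7, Tcf7 and Cxcr4 reached 20 UMIs, and 0 of 3 were at least 2-fold apart, beside 5.74% of 1951 genes higher and 4.25% lower. Ccr7 stood at 435 CPM in HAMSAB (89 UMIs) and 387 CPM in HAMS (52 UMIs), a log2 ratio of 0.17 (-0.34 to 0.69). Cxcr4 stood at 1060 CPM (217 UMIs) and 1108 CPM (149 UMIs), at -0.06 (-0.37 to 0.25). Tcf7 stood at 78.2 CPM (16 UMIs) and 44.6 CPM (6 UMIs), at 0.81 (-0.62 to 2.45), and lay almost wholly in a subcluster led by Spry2, H2-M2 and Fabp5, with 14 of the 16 HAMSAB UMIs and all 6 of the HAMS ones. That finer cluster also took in 63 HAMSAB and 43 HAMS cells of cluster 5, where Tcf7 had 0 and 4 UMIs. Cd3d, Cd3g, Trac, Trbc1, Thy1 and Lat had 0 UMIs in the cDC-like class of both diets. Of 12 T cell markers 5 in HAMSAB and 1 in HAMS had any UMI.

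Mature dendritic cells raise CCR7 together with the actin bundler fascin, encoded by Fscn1. Among cDC-like cells, those with a Ccr7 UMI had 1605 CPM of Fscn1 in HAMSAB (1330 to 1921) and those without had 858 CPM (707 to 1033). In HAMS the values were 1748 (1365 to 2205) and 1546 CPM (1304 to 1819), with overlapping intervals. Cells with Ccr7 were deeper (median 1149.5 and 969 UMIs in HAMSAB, 1122 and 864 in HAMS), and the part of depth was not tested. In cluster 7 the Fscn1 intervals overlapped in both diets (297 and 236 CPM in HAMSAB, 382 and 326 in HAMS). In cluster 5 they were apart in HAMSAB (266 to 556 and 110 to 180 CPM) and overlapped in HAMS (200 and 205 CPM). For Ccl22, Cacnb3 and Il4i1, intervals with and without Ccr7 overlapped in all these classes and both diets. Fscn1 itself was lower in HAMSAB cDC-like cells, at 1129 CPM against 1606 CPM, and summed mature dendritic cell markers stood at 2438 and 2900 CPM. Ccr7 had no such difference in this class.

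Cluster 5 had 5 genes with 20 UMIs, of which 1 was at least 2-fold higher (4.3% of 4442 genes were) and 1 at least 2-fold lower (3.49% were). Tcf7 was the higher one, with 21 UMIs in HAMSAB (38.0 CPM) and 7 in HAMS (15.2 CPM), a log2 ratio of 1.32 (0.03 to 2.80). Tcf7 was in 1.72% of HAMSAB and 0.935% of HAMS cells, beside 0.650% and 0.212% of endocrine cells. Klf2 was the lower one, with 10 UMIs (18.1 CPM) and 17 (37.0 CPM), a log2 ratio of -1.03 (-2.32 to 0.18). Neither count supports more than a description.

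Ccr7 in cluster 5 stood at 264 CPM in HAMSAB (146 UMIs) and 242 CPM in HAMS (111 UMIs), a log2 ratio of 0.13 (-0.24 to 0.50). Cxcr4 stood at 1978 and 2127 CPM (-0.10, -0.23 to 0.02). Contrary to T-like cells, cells of cluster 5 with a Ccr7 UMI had more Cxcr4, 2466 CPM with and 1898 CPM without in HAMSAB, and 3674 and 1895 CPM in HAMS. The cDC-like class and cluster 7 did not share this clearly, as their intervals overlapped. In cDC-like cells Cxcr4 was 1309 CPM with Ccr7 and 920 CPM without in HAMSAB, and 1206 and 1066 CPM in HAMS. In cluster 7 it was 2770 and 3189 CPM in HAMSAB, and 3473 and 3609 CPM in HAMS. Il7r stood at 70.6 CPM (39 UMIs) and 43.5 CPM (20 UMIs), a log2 ratio of 0.70 (-0.12 to 1.55).

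Cluster 7, with the highest Ccr7 level of all classes, had 0 of 3 measured genes at least 2-fold apart, beside 10.3% of 1413 genes higher and 3.82% lower. Ccr7 was found in 37.2% of its HAMSAB cells (30.1 to 44.7) and 40.5% of its HAMS cells (29.6 to 52.2), a log2 ratio of CPM of 0.14 (-0.37 to 0.67). Cxcr4 stood at 3017 and 3547 CPM (-0.23, -0.46 to 0.00) and Il7r at 107 and 122 CPM (-0.19, -1.50 to 1.24). Only 39 HAMSAB and 15 HAMS cells of this cluster had at least 500 genes. Among these the log2 ratio was 1.02 for Ccr7 and -1.59 for Il7r, which had 24 UMIs in the whole cluster. In pDC-like cells 0 of 2 measured genes were at least 2-fold apart, beside 8.68% of 357 genes higher and 8.4% lower. Cxcr4 stood at 3543 CPM in HAMSAB (115 UMIs) and 2524 CPM in HAMS (43 UMIs), a log2 ratio of 0.49 (-0.03 to 1.03), and Il7r had a ratio of -0.01 (-1.26 to 1.34).

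**Figure D4:**
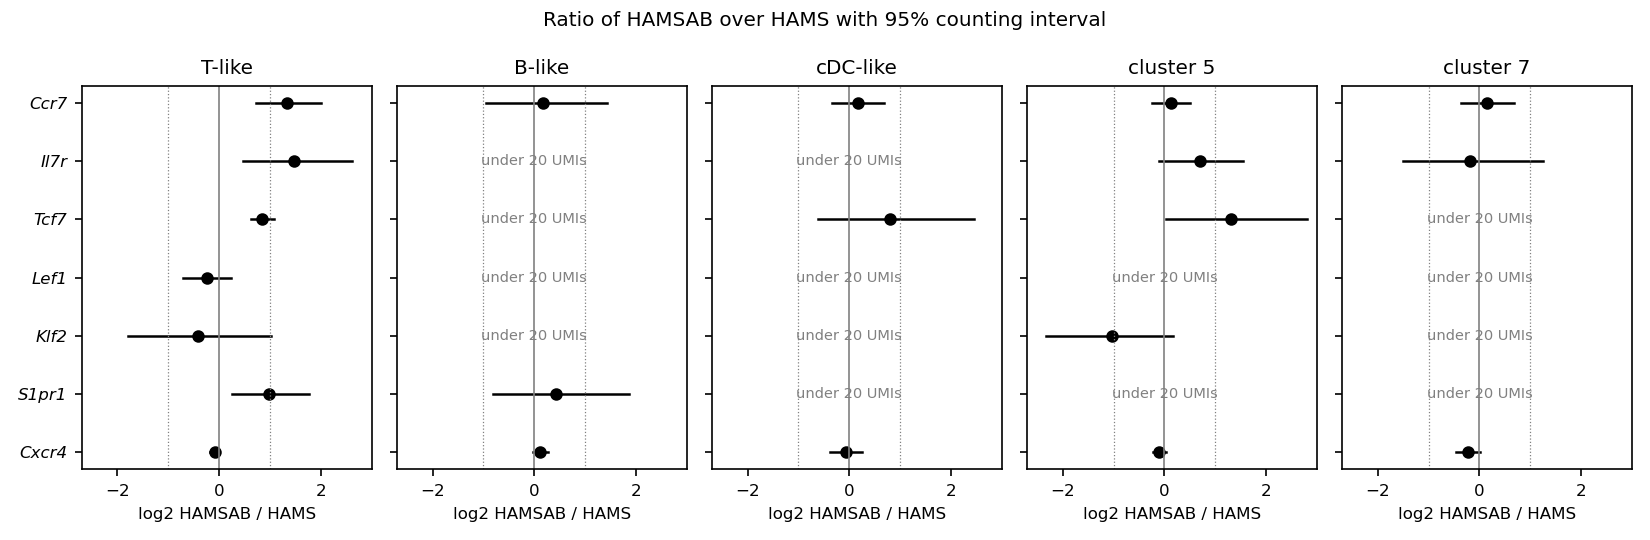
Log2 ratio of HAMSAB over HAMS for the 7 genes (rows) in T-like, B-like and cDC-like cells and clusters 5 and 7 (panels), with 95% counting intervals; dotted lines mark 2-fold. Intervals wholly above 0 occur for Ccr7, Il7r, Tcf7 and S1pr1 in T-like cells and for Tcf7 in cluster 5.

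The authors' deposited tables of diet comparisons name 2 of the 7 genes. In the authors' deposited table for T cells, Tcf7 has a log2 fold change of 0.61, with 35.4% of HAMSAB and 23.8% of HAMS cells, a p-value of 0.000658 and an adjusted p-value of 1. The authors' deposited table for B cells lists Cxcr4 at 0.52, with 70.6% of HAMSAB and 53.6% of HAMS cells, a p-value of 1.7e-05 and an adjusted p-value of 0.255. With 1 library per diet, no p-value there can carry the variation between mice. None of the 7 genes is in the authors' deposited tables for conventional or plasmacytoid dendritic cells.

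Companion genes of the same pathways were read in T-like cells by fixed lists, beside 5.56% of all 5670 genes at least 2-fold higher, 2.98% at least 2-fold lower and a median log2 ratio of 0.01 over all genes. Of 11 measured genes of interleukin 7 signalling 1 exceeded 2-fold upward and 0 downward, with a median log2 ratio of 0.43 beside 0.01 over all genes. That gene was Socs1, a STAT-induced brake on cytokine receptors, at 127 CPM in HAMSAB (92 UMIs) and 41.8 CPM in HAMS (17 UMIs), a log2 ratio of 1.61 (0.85 to 2.45). Pim1, a STAT5 target kinase gene, stood at 5184 and 3267 CPM (0.67, 0.58 to 0.76), and Stat5b, the transducer itself, at 36.0 and 66.3 CPM (-0.88, -1.72 to -0.05).

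Of 11 measured naive and quiescence genes 2 exceeded 2-fold upward and 0 downward, with a median log2 ratio of 0.37 beside 0.01 over all genes. The genes past 2-fold were Bach2 (17 UMIs in HAMSAB, 4 in HAMS) and Nsg2 (21 and 5), both with intervals that held 0. Among the genes with intervals farthest from 0, Satb1, a chromatin organiser of T cells, stood at 748 CPM in HAMSAB and 577 CPM in HAMS (0.37, 0.15 to 0.60). The antiproliferative gene Btg1 stood at 3359 and 2796 CPM (0.26, 0.16 to 0.37). Klf13, a relative of Klf2, was lower, 817 and 1108 CPM (-0.44, -0.62 to -0.26). Homing receptors and integrins split. Of 11 measured, only the chemokine receptor gene Cxcr3 (19 UMIs in HAMSAB, 4 in HAMS) passed 2-fold, and the median was -0.12. The interval of Cxcr3 held 0 (-0.17 to 3.43). Itgb1, another integrin gene, stood at 324 CPM in HAMSAB and 246 CPM in HAMS (0.40, 0.05 to 0.75). The integrin gene Itga4 stood at 138 and 229 CPM (-0.72, -1.15 to -0.30).

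Activation genes were read by the same rule. Among 12 measured retention and activation genes the median log2 ratio was 0.21, and 1 passed 2-fold upward, near the 5.56% of all genes. This was Cd69, whose product removes S1PR1 from the surface, at 115 CPM in HAMSAB (83 UMIs) and 56.5 CPM in HAMS (23 UMIs), a log2 ratio of 1.02 (0.34 to 1.76). Il2ra, the high-affinity interleukin 2 receptor chain, stood at 165 and 106 CPM (0.64, 0.13 to 1.18). Of 4 measured TCF1 and LEF1 partners 0 were at least 2-fold apart, and 0 of the 7 listed ligand and ligand-making genes reached 20 UMIs in T-like, B-like or cDC-like cells.

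Immediate early genes, which tissue dissociation can induce, differed as well and in both directions. Beside 2.98% of all T-like genes at least 2-fold lower, of 14 measured in T-like cells 2 passed 2-fold, both downward, Fos at 131 and 280 CPM (-1.09, -1.50 to -0.69) and Atf3 at 13.8 and 36.9 CPM (-1.41, -2.73 to -0.16). Junb stood at 809 and 540 CPM (0.58, 0.36 to 0.81). In B-like cells 3 of 13 passed 2-fold, all upward, namely Ier2, Klf6 and Klf4, beside 7.86% of all genes higher and 3.46% lower. The interval of Ier2 held 0 (45 UMIs in HAMSAB, 7 in HAMS). Klf4, a Klf2 relative, stood at 76.3 and 22.7 CPM (1.75, 0.43 to 3.43). In cDC-like cells 2 of 12 passed 2-fold, both downward, Egr1 and Atf3, beside 5.74% of all genes higher and 4.25% lower. There the interval of Atf3 held 0 (9 UMIs in HAMSAB, 12 in HAMS). In cluster 7, 4 of 14 passed 2-fold upward and 0 downward, beside 10.3% and 3.82%, and the list summed to 7443 CPM in HAMSAB and 4887 CPM in HAMS. The part of dissociation in the differences of the 7 genes was not tested.

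Across 28 units, 14 classes in each of 2 libraries, the genes most alike to each member were ranked by Pearson's r over 4651 genes, as a description of units that share libraries and depth. Tcf7 ran most like Bcl11b (0.85), Cd3g (0.81) and Gata3 (0.79), and Lef1 most like Gimap1 (0.77), Dut (0.76) and Rrm2 (0.74). Ccr7 ran most like Bcl2a1b (0.92), Traf1 (0.92) and Nr4a3 (0.91). The closest genes to Il7r were Jaml (0.84), Fyb (0.81) and BC018473 (0.79), and to Cxcr4 they were Cd53 (0.91), Zeb2 (0.88) and Srgn (0.87). S1pr1 was nearest to Calcrl (0.82) and Tra2a (0.82), and Klf2 to Sar1a (0.78). Among the 7 themselves the highest r were 0.63 for Il7r with Cxcr4, 0.61 for Ccr7 with Cxcr4 and 0.52 for Tcf7 with Lef1.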

How the data were processed

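Per the labels' protocols islets were captured with a Chromium 3' kit, and per the file headers Cell Ranger 5.0.0 wrote the deposited matrices, which hold raw UMI counts per gene and barcode. The submitters' processing notes name Seurat, mm10 and GRCm38. The authors' deposited comparison tables give a log2 fold change, fractions of cells with the gene, and p-values. Which test gave them is not given in the sources used here. All members, companion lists and rules were chosen with earlier results of these data known.

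Barcodes below 200 genes or above 20% mitochondrial UMIs were dropped. Scrublet (scanpy 1.11.5) marked 1 of 4628 HAMSAB and 3 of 4185 HAMS cells, too few for a working caller (minimum 0.5%), so all cells stayed. Clustering used 2000 variable genes without the 7 members, 30 principal components, 15 neighbours and Leiden (igraph 0.11.9) at resolution 1, or 2 for subclusters. A cluster was named X-like from fixed markers, when 3 or more were seen in 5% of its cells, with no other class leading its top 10 genes. UMIs were summed per class and library, and CPM carry exact Poisson, shares Clopper-Pearson, and ratios exact conditional binomial 95% intervals, all for counting error only, since cells are not replicates. The ratio step was tested on simulated data. The genes named are all 7 members, the genes of each list whose interval lay farthest from 0 (up to 2 in each direction), genes past 2-fold where a list had 5 or fewer (named after their values were seen), and the 3 most alike to each member by log2(CPM + 10). Not every gene that met these rules is named in the text. Likeness used genes with at least 200 UMIs. Subcluster and coreceptor readings, and those of Fscn1, Ccl22, Cacnb3 and Il4i1, were added for description. Alternatives were each cell weighted equally, thinning to 500 UMIs, at least 500 genes per cell, at least 50 UMIs per gene, other clusterings and classings, mixed-lineage cells left out, and CPM without mitochondrial, ribosomal, Actb and hormone UMIs. A gene withheld from this text is not reported here.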

Additional observations from a re-analysis of the deposited data

How the results depend on the processing

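No paired analysis was possible because each diet has 1 library. No called value changed sign under an alternative. In T-like cells the log2 ratios over 9 alternatives ran from 0.94 to 1.65 for Ccr7, 0.95 to 2.33 for Il7r, 0.57 to 0.87 for Tcf7, 0.72 to 1.07 for S1pr1 and -0.55 to 0.02 for Lef1. Members at least 2-fold higher there, 2 as reported, were 1 at Leiden resolution 2 and 1 with cells thinned to 500 UMIs. Genes at least 2-fold apart in T-like cells, 484 as reported, were 740 with each cell weighted equally, 126 thinned and 105 at a minimum of 50 UMIs. In B-like cells 566 became 121 thinned and 103 at 50 UMIs, and in cDC-like cells 195 became 49 and 31. In cluster 5, 346 became 150 with at least 500 genes per cell (fewer cells), 146 thinned and 51 at 50 UMIs, the member median 0.13 became 0.81 with at least 500 genes, and the 1 member 2-fold lower became 0. In cluster 7, 199 became 96, 65 and 28 under the same settings. Raising the UMI minimum leaves fewer genes to count. For the other shifts the cause was not tested. Outside T-like cells the widest moves came with at least 500 genes per cell, which left few cells in the cDC-like class and clusters 5 and 7. In cluster 7 (39 HAMSAB and 15 HAMS cells left) log2 ratios were 1.02 for Ccr7 (0.14 as reported) and -1.59 for Il7r (-0.19). In cluster 5 (71 and 61 cells) they were 0.84 for Ccr7 (0.13) and 2.24 for Il7r (0.70). S1pr1 had 2.16 (0.43) in B-like cells (256 and 87 cells), and Cxcr4 0.46 (-0.06) in cDC-like cells (65 and 31 cells). Few UMIs limit Klf2 in the T-like, B-like, cDC-like and pDC-like classes and in clusters 5 and 7, and Ccr7 and S1pr1 in B-like cells.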
